A study of Homo sapiens with 8 samples.

Results

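NEAT1 and MALAT1 are neighbouring long noncoding RNA genes of chromosome 11q13 whose transcripts stay in the nucleus. Both were taken by name, and these 2 genes were described among 17253 genes that had an assigned transcript in 1 or more of 8 RNA-seq libraries. HepG2 cells and cells labelled Hep3B were both named by the study as human hepatocellular carcinoma (HCC) lines and labelled wild type. They were left untreated or treated for 48 h, and each condition was sequenced as 1 library. NaB stands here for sodium pentaborate pentahydrate, a boron compound, given at 2500 µM to HepG2 cells and at 1700 µM to cells labelled Hep3B. Curcumin (Cur, 30 µM), a polyphenol of turmeric, was given together with piperine (Pip, 6 µM), an alkaloid of pepper, and the fourth condition combined NaB, Cur and Pip. Since no condition was repeated, differences within a line could not be tested, and the NaB doses differ between the lines. Stocks of Cur and Pip were made in dimethyl sulfoxide and those of NaB in medium, while the controls are described as without treatment. Effects of Cur and Pip and of their solvent therefore cannot be told apart.

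NEAT1 is the RNA scaffold of paraspeckles, nuclear bodies that hold RNA-binding proteins and some RNAs. The gene gives a short, polyadenylated RNA and, when that early end is passed over, a long RNA that is needed to build the paraspeckle. MALAT1 is among the most abundant nuclear RNAs and gathers in nuclear speckles, the stores of splicing factors. The long NEAT1 RNA and MALAT1 have no ordinary poly(A) tail. RNase P cuts off a tRNA-like small RNA at their ends, and the end left behind is guarded by a triple helix of 2 U-rich stretches and an A-rich stretch.

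In GRCh38, NEAT1 (ENSG00000245532.11) lies on the plus strand at chr11:65422774-65445540, 22767 bases, with 9 transcripts in GENCODE. Its annotated short transcript ends at base 65426457 and its long transcript is 1 exon of 22743 bases. MALAT1 (ENSG00000251562.11) follows on the same strand 52099 bases further on, at chr11:65497640-65508073, with 66 annotated transcripts over 10434 bases. The most frequent annotated start of MALAT1, used by 19 of these transcripts, is base 65499045.

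The 3′ elements of both RNAs are shown first, because they set where each mature RNA ends. The 100 bases before each tRNA-like small RNA are given 5′ to 3′, with both U-rich motifs (TTTCTTTT and TTTGCTTTT) and the A-rich motif (AAAGCAAAA) in capitals, at chr11:65445441-65445540 and chr11:65506017-65506116.
NEAT1 3′ element: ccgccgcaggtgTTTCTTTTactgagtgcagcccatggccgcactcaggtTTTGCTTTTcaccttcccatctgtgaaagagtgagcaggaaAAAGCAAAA
MALAT1 3′ element: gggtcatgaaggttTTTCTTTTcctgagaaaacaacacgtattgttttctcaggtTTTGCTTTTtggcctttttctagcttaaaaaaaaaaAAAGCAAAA
These letters, read from the 2 genes themselves, occur in this order within 100 bases at 2 places on the plus strand of chromosome 11 and at 0 on the minus strand. Of 1345323 windows of 100 bases set end to end along the chromosome, 0% held them on either strand, since the window edges cut both places.

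The tRNA-like small RNAs that follow directly are annotated as ENSG00000275948 (58 bases, chr11:65445541-65445598) and ENSG00000274072 (57 bases, chr11:65506117-65506173). Capitals mark the bases that were identical in a global alignment, 40 of 59 alignment columns or 67.8%.
NEAT1 small RNA: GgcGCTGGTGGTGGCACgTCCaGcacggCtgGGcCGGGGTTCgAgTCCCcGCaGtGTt
MALAT1 small RNA: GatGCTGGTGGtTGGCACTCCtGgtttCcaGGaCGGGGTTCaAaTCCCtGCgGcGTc
The small RNA lies inside the annotated MALAT1 gene, whereas at NEAT1 it begins at the base after the annotated end.

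Each library held an estimated 25.6 to 35.7 M fragments and 24846 to 36652 assembled transcripts. Of 16 hepatocyte markers, 13 to 16 reached an FPKM of 1 in the HepG2 libraries but 0 to 2 did so in the libraries labelled Hep3B. Their summed FPKM was 7616 to 16860 in HepG2 and 0.456 to 6.55 in cells labelled Hep3B, where HNF4A, a liver transcription factor, was listed at 0 to 0.566. In the HepG2 control, against which every HepG2 fold change is set, 13 of the 16 reached an FPKM of 1, but ALB (albumin) and AFP (alpha-fetoprotein) were listed at 0, beside 2989 to 7518 and 356 to 818 FPKM in the treated HepG2 libraries; an exact 0 here can be a failed estimate. The hepatocyte markers thus go against the Hep3B label, while 3 of 5 fibroblast markers reached an FPKM of 1 in each of these 4 libraries (summed FPKM 38.0 to 303), against 0 in HepG2. Of 8 markers of other epithelia 1 or 2 reached an FPKM of 1 in each library, of 4 leukocyte markers 0 or 1, and of 3 endothelial markers 0 or 1. The epithelial sum in cells labelled Hep3B was 502, 16.1, 92.8 and 29.25 FPKM in control, NaB, Cur and Pip, and combination. The fibroblast sum was 303, 84.1, 59.6 and 38.0, so that neither list was the higher one throughout. In HepG2 the epithelial sum was 157, 71.6, 9.99 and 6.77. The share of assembled transcripts with a single exon was 16.4, 22.7, 34.1 and 32.2% in HepG2 control, NaB, Cur and Pip, and combination, and 14.7, 19.1, 22.4 and 28.4% in the same conditions of cells labelled Hep3B. The part of this share, and of the cell identity, in the results that follow was not tested.

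The level of a gene was first taken as the sum of the FPKM (fragments per kilobase of transcript, scaled to the size of the library) of its assembled transcripts. NEAT1 was higher in HepG2 cells treated with Cur and Pip, alone or with NaB, and not with NaB alone. Its summed FPKM in HepG2 was 9.71 in the control, 8.54 with NaB, 51.7 with Cur and Pip, and 45.6 with the combination. Both libraries that received Cur and Pip thus stood well above the other two. The cells labelled Hep3B had 215 in the control, 102 with NaB, 210.5 with Cur and Pip, and 119 with the combination, so that both libraries that received NaB were the lower ones. Every library labelled Hep3B was above every HepG2 library on this scale.

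MALAT1 was higher than the control in each of the 6 treated libraries. Its summed FPKM in HepG2 was 27.0 in the control, 41.7 with NaB, 316 with Cur and Pip, and 189 with the combination. The cells labelled Hep3B had 45.6 in the control, 179 with NaB, 170 with Cur and Pip, and 247 with the combination. The lines differ in the NaB library: with NaB alone MALAT1 in cells labelled Hep3B was in the range of the other treated libraries, whereas in HepG2 it stayed nearer to the control. Whether the lines differ beyond the spread between cultures was not tested, and in these bulk samples fewer cells of a kind and less RNA per cell cannot be told apart.

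In order of summed FPKM, NEAT1 was highest in the control labelled Hep3B and in its Cur and Pip library, whose 95% Cufflinks intervals overlapped (207 to 223 and 203 to 218). For each other neighbouring pair in that order the intervals were apart, down to HepG2 control (9.26 to 10.2) and NaB (8.13 to 8.95). For MALAT1 the HepG2 library with Cur and Pip was highest. The HepG2 combination (181 to 197) overlapped NaB in cells labelled Hep3B (173 to 184), and the latter overlapped Cur and Pip in these cells (165 to 175). Such an interval covers how well a single library was estimated and says nothing of the spread between cultures.

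**Figure D1:**
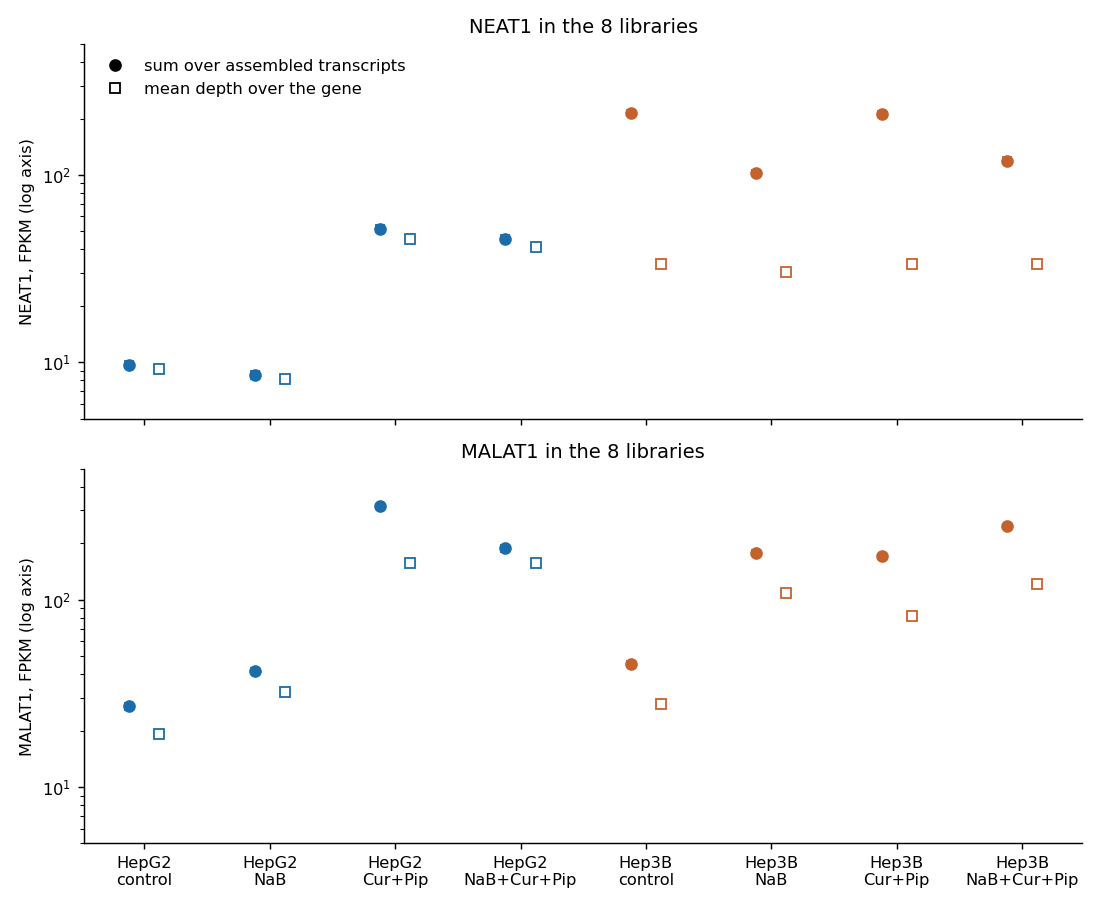
FPKM of NEAT1 and MALAT1 (log axes) in the 8 libraries, HepG2 in blue and cells labelled Hep3B in orange; filled circles are sums over assembled transcripts, open squares the mean depth over the annotated gene, and the bars, mostly hidden by the symbols, 95% Cufflinks intervals. NEAT1 in the 4 libraries labelled Hep3B runs from 102 to 215 by sum but from 30.3 to 33.6 by mean depth, whereas MALAT1 is above its control in all 6 treated libraries on both scales.

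Because a sum over transcripts gives a short piece as much weight as a long one, the depth was also averaged over all bases of the annotated exons, called gene-wide depth here. In HepG2 the gene-wide depth of NEAT1 was 9.22, 8.16, 45.3 and 41.3 FPKM in control, NaB, Cur and Pip, and combination, the same order as the sums. The values in cells labelled Hep3B were 33.3, 30.3, 33.3 and 33.6 FPKM, so that the gap between libraries with and without NaB was small, and only the interval of the NaB library lay below that of the control without overlap (29.2 to 31.5 against 32.1 to 34.6). For MALAT1 it was 19.2, 32.0, 157 and 158 FPKM in HepG2 and 27.7, 108, 81.7 and 121 FPKM in cells labelled Hep3B. MALAT1 was thus above its control in all treated libraries on this scale too, and the 2 HepG2 libraries with Cur and Pip had overlapping intervals (153 to 161 and 151 to 164). The mean read depth behind these values was 87.9 to 524 reads per base for NEAT1 and 221 to 1815 for MALAT1.

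The ratio of MALAT1 to NEAT1, both per length, was 2.08, 3.92, 3.46 and 3.83 by gene-wide depth in HepG2. The ratio in cells labelled Hep3B was 0.832 in the control, 3.56 with NaB, 2.45 with Cur and Pip and 3.60 with the combination. By summed FPKM the ratio was 2.78, 4.89, 6.11 and 4.15 in HepG2 and 0.213, 1.75, 0.809 and 2.07 in cells labelled Hep3B. The control had the lowest ratio in both lines on both scales, whereas the highest library changed with the scale in HepG2, from NaB by gene-wide depth to Cur and Pip by sum, and in cells labelled Hep3B with Cur and Pip MALAT1 was above NEAT1 by gene-wide depth and below it by sum.

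Fold changes were then set against the control of each line on the log2(FPKM + 1) scale, with the study's threshold of an absolute value over 1.5. In HepG2 with NaB alone neither gene passed it: NEAT1 had a log2 fold change of -0.17 (95% Cufflinks interval -0.26 to -0.08) and MALAT1 one of 0.61 (0.53 to 0.69). Over the 13431 genes measured in this line, 4.7% were higher and 5.06% lower past the threshold. By gene-wide depth 3.82% of 13986 genes were higher past it.

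With Cur and Pip both genes passed it in HepG2. NEAT1 had a log2 fold change of 2.30 (2.21 to 2.38), a ratio of 4.91, and MALAT1 one of 3.50 (3.43 to 3.57), a ratio of 11.3. Most of this MALAT1 sum (316 FPKM) lay in transcripts of 166.5 and 99.9 FPKM, each with an unannotated gap of 2354 bases. These gaps lack GT and AG ends and were each seen in 1 library. In bins 7 and 8 of 10 equal bins, where they lie, the depth was 53.7 and 49.3 FPKM, against 25.8 and 27.0 in the control. In bin 3 it was 316 against 27.0. Among all genes 8.98% were higher past the threshold and 10.2% lower. A higher fold change than that of NEAT1 was found for 4.15% of the genes, and one higher than that of MALAT1 for 1.72%. By gene-wide depth the log2 fold changes were 2.18 and 2.97, and 6.53% of all genes were higher past the threshold.

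The combination gave 2.12 (2.03 to 2.21) for NEAT1 and 2.76 (2.68 to 2.85) for MALAT1 in HepG2, both past the threshold. The shares of all genes past it were 8.02% higher and 11.5% lower, and 7% higher by gene-wide depth. By gene-wide depth NEAT1 had a log2 fold change of 2.05 and MALAT1 one of 2.98, close to their values with Cur and Pip alone.

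In cells labelled Hep3B only MALAT1 passed the threshold, by sum as by gene-wide depth. Its log2 fold change was 1.95 (1.88 to 2.02) with NaB, where 4.97% of all genes were higher and 7.01% lower past the threshold. With Cur and Pip it was 1.88 (1.81 to 1.94), beside 6.44% higher and 3.95% lower, and with the combination 2.41 (2.34 to 2.48), beside 6.79% and 8.17%. By gene-wide depth the values were 1.92, 1.52 and 2.08, and the shares of all genes higher past the threshold 3.6, 4.77 and 5.46%. Counting the transcript with the highest FPKM alone, MALAT1 after Cur and Pip was at 1.38, below the threshold.

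NEAT1 had a log2 fold change of -1.06 (-1.14 to -0.99) with NaB and of -0.84 (-0.92 to -0.76) with the combination in cells labelled Hep3B, and of -0.03 (-0.10 to 0.05) with Cur and Pip. None of these passed the threshold. The median over all genes with NaB in this line was -0.12, and after median-of-ratios scaling the first value was -0.89. By gene-wide depth NEAT1 was at -0.13 with NaB, 0.01 (-0.07 to 0.09) with the combination and -0.00 with Cur and Pip, so that the direction after the combination was turned, at a value near 0.

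**Figure D2:**
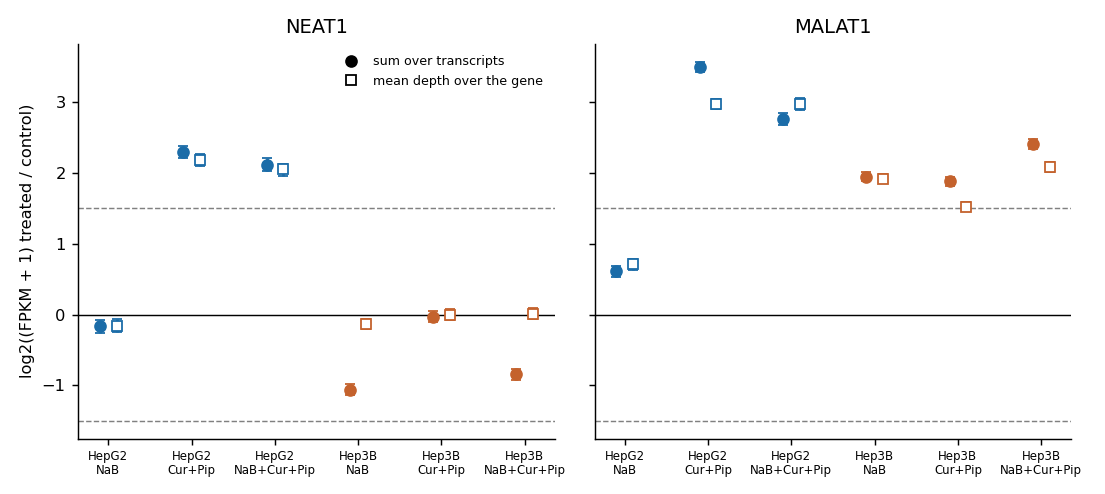
Log2 fold change (FPKM + 1) of NEAT1 and MALAT1 against the control of the same line, by the sum over transcripts (filled circles) and by gene-wide depth (open squares), with 95% Cufflinks intervals; dashed lines mark the threshold of 1.5 in either direction. MALAT1 lies above 0 in all 6 comparisons, whereas NEAT1 lies above 0 on both scales only in HepG2 with Cur and Pip (2.30 by sum) and with the combination (2.12).

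Changes shared by both lines were tested with limma over the 8 libraries with the line as a term, which leaves 3 residual degrees of freedom and takes any difference in response between the lines as error. MALAT1 had a log2 change of 1.28 ± 0.71 (SE) with NaB (limma, adjusted p = 0.898), 2.69 ± 0.71 with Cur and Pip (limma, adjusted p = 0.686) and 2.59 ± 0.71 with the combination (limma, adjusted p = 0.416). MALAT1 was higher than its control in 6 of 6 treated libraries, but the change did not pass the correction over 15447 genes. The comparisons of a line share its control, so these 6 are not independent, and the share of all genes higher in all 6 was not computed. The unadjusted limma p-values were 0.13, 0.012 and 0.014. Over the alternatives that were tried the adjusted p of MALAT1 ranged from 0.733 to 0.995, from 0.311 to 0.999 and from 0.326 to 0.702 for the 3 treatments.

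NEAT1 had log2 changes of -0.62, 1.13 and 0.64 (SE 0.78 each), with limma adjusted p = 0.968, 0.686 and 0.727, and over the alternatives 0.894 to 1, 0.58 to 0.999 and 0.49 to 0.94. Among all genes limma called 0 with NaB (0%; 726 at an unadjusted p under 0.05), 4 with Cur and Pip (0.0259%; 916) and 11 with the combination (0.0712%; 1655). Leaving out the control labelled Hep3B turned the NEAT1 change with NaB to 0.41. Leaving out the HepG2 control or the HepG2 combination library turned that of the combination to -0.39 and -0.31.

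The form in which NEAT1 was assembled differed between the lines. In each HepG2 library it was 1 transcript that covered 87.8 to 95.7% of the gene, of 20618 to 22790 exonic bases. Libraries labelled Hep3B split it into 7, 4, 7 and 3 transcripts in control, NaB, Cur and Pip, and combination, which covered 60.5 to 76.8% of the gene. Cufflinks gives 1 level to each transcript, so the depth within a transcript is flat by construction.

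The gene was parted at the annotated end of the short transcript, into 3684 bases that both RNAs share and 19083 bases that belong to the long RNA. In HepG2 the shared part had a depth of 9.71, 8.54, 51.7 and 45.2 FPKM and the long part 9.12, 8.09, 44.1 and 40.5 FPKM. Their ratios of 1.05 to 1.17 follow from the single transcript and are no measure of the 2 isoforms. Long NEAT1 was assembled up to 1168, 991, 151 and 1188 bases before its annotated end in control, NaB, Cur and Pip, and combination. The long RNA and MALAT1 lack a poly(A) tail, and whether poly(A) RNA was selected for these libraries is not given; its part in their levels was not tested.

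In cells labelled Hep3B the depth per base was higher in the shared part than in the long part in all 4 libraries. The shared part had 205 FPKM in the control and 201 with Cur and Pip, and the long part 0.283 and 0.893, which gives ratios of 722 and 225. With NaB and with the combination the shared part had 99.5 and 115 FPKM and the long part 16.9 and 17.9, and the ratios were 5.87 and 6.44. The 2 libraries with NaB therefore stood apart from the other 2 in both parts. No replicate was available to test this.

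Where the leading 5′ piece ended accounted for most of this depth in the long part. In the control and with Cur and Pip it ended at bases 65426371 and 65426376, 86 and 81 bases before the annotated end of the short RNA. With NaB and with the combination it ended at 65429536 and 65429232, 3079 and 2775 bases beyond that end. In the last of 10 equal bins of the gene the depth was 0.306, 1.64, 1.31 and 0.335 FPKM in control, NaB, Cur and Pip, and combination. The region around the short end, chr11:65426337-65426557, is shown because the pieces of the first 2 libraries stop inside it; the polyadenylation hexamer AATAAA is in capitals.
NEAT1 short end: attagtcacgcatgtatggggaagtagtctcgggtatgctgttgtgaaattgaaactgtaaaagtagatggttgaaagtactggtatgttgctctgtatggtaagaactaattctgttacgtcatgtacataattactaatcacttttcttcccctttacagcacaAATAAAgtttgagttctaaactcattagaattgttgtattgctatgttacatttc
The hexamer starts 46 bases after the annotated short end, and 132 and 127 bases after the ends of the 2 pieces. It was found once in the shared part of the gene and 7 times in the long part, on the plus strand. Of the windows of 221 bases on chromosome 11, 33.2% hold it on either strand.

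**Figure D3:**
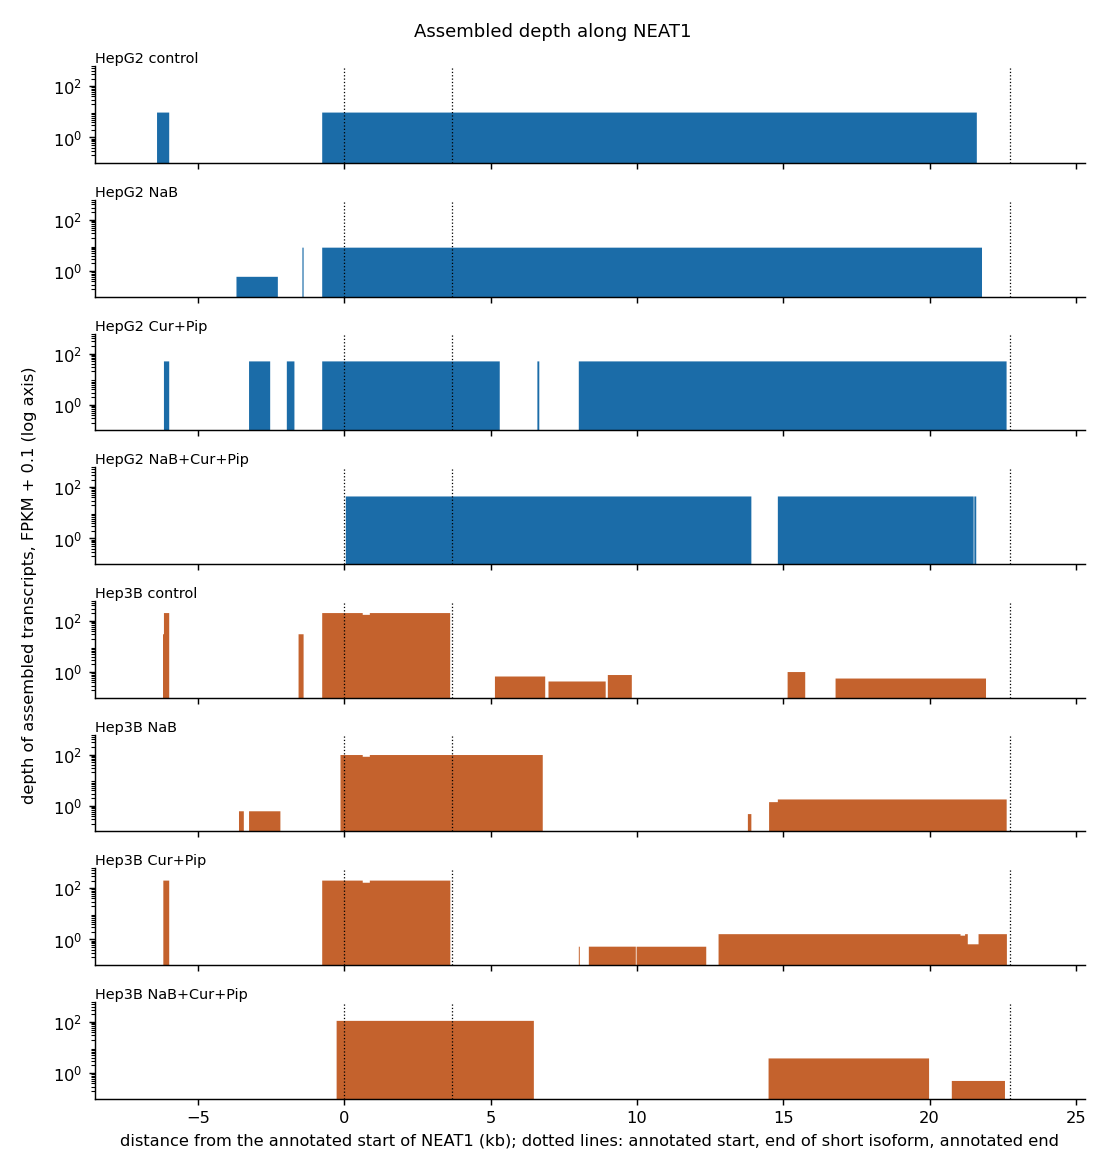
Depth of the assembled transcripts (FPKM + 0.1, log axes) along NEAT1, by distance in kb from its annotated start, in the 8 libraries; dotted lines mark the annotated start, the end of the short isoform and the end of the gene. In HepG2 a flat depth runs over nearly the whole gene, while in cells labelled Hep3B a 5′ piece of 100.5 to 212 FPKM ends at the short isoform's end in the control and with Cur and Pip, and 2775 and 3079 bases beyond it in the 2 libraries with NaB.

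At the 5′ end, 4 libraries held an exon upstream of the annotated gene. Its last base is 65416769, which is 6005 bases before the annotated start, and in 3 of these libraries it was joined to base 65421999, 775 bases before that start. The same donor was joined to other acceptors in the HepG2 library with Cur and Pip and in a minor transcript of the control labelled Hep3B. These junctions are in no GENCODE transcript of NEAT1. The bases around both splice sites follow, 40 of exon and 20 of intron each, with the first and the last 2 intron bases in capitals, at chr11:65416730-65416789 and chr11:65421979-65422038.
NEAT1 upstream donor: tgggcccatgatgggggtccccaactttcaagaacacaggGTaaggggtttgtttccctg
NEAT1 upstream acceptor: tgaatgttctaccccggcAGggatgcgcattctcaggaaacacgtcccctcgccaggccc
Transcripts through this donor carried 100% of the NEAT1 FPKM in the HepG2 control and in the HepG2 library with Cur and Pip, and 98.5 and 98.8% in the control and the Cur and Pip library labelled Hep3B. The donor was used in 4 of 4 libraries without NaB and in 0 of 4 with NaB. This split was noticed after the values were seen and was not tested. In the HepG2 NaB library, whose NEAT1 level was close to that of its control, the acceptor at 65421999 was joined to a nearer exon instead, and the 3 other libraries with NaB began at 65422492 to 65422806, within 282 bases of the annotated start.

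Inside NEAT1, 1 intron of GENCODE was seen, chr11:65423384-65423626, in the control, NaB and Cur and Pip libraries labelled Hep3B. The transcripts that used it had 31.4, 14.6 and 36.5 FPKM, the smaller share of the level in each. Of 14 introns in all, 12 had GT and AG ends and 4 were seen in 2 or more libraries.

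MALAT1 was assembled as 1 to 3 transcripts per library, which covered 64.6 to 85.3% of the annotated gene. In the libraries labelled Hep3B the first base lay within 100 bases of the most frequent annotated start, from 100 before it to 1 after it. In HepG2 it lay 97, 1261, 1190 and 817 bases before it in control, NaB, Cur and Pip, and combination. Of the RefSeq promoters (GRCh38.p14) 2 belong to MALAT1 and 0 to NEAT1. The MALAT1 promoter at this start is printed, chr11:65498795-65499094, 250 bases before and 50 from the start on, with the TATA motif TATAAA in capitals.
MALAT1 promoter: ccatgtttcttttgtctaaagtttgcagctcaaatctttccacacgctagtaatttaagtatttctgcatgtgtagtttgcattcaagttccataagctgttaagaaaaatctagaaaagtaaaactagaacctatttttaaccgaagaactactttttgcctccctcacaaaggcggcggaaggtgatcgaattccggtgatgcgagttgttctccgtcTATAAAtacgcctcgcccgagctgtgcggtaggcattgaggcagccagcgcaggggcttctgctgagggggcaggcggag
TATAAA begins 30 bases before the start, and 11.5% of the 35116 promoters hold it on either strand (7.33% on the strand of the gene). The promoter of the other MALAT1 start, at base 65497738, holds these letters on neither strand.

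At the other end, the last assembled base of MALAT1 lay past the tRNA-like small RNA printed above in 7 of 8 libraries. Part of the level there skipped the small RNA by an intron or gap. In cells labelled Hep3B these transcripts had 28.5, 117, 66.6 and 189 FPKM in control, NaB, Cur and Pip, and combination. The sums over all MALAT1 transcripts were 45.6, 179, 170 and 247. In HepG2 with Cur and Pip the transcripts of 166.5 and 99.9 FPKM skipped it, out of 316. The last base lay 216 to 255 bases after the small RNA in the libraries labelled Hep3B. In HepG2 it lay 323, 579 and 1533 bases after it in control, Cur and Pip, and combination, and 269 bases before it in the NaB library. The hexamer AATAAA starts 274 and 316 bases after the small RNA.

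A short intron of MALAT1 known to GENCODE, chr11:65502394-65502636, was used in 6 libraries. Transcripts through its donor, to any acceptor, carried 39.5, 48, 84.4 and 0% of the MALAT1 FPKM in HepG2 and 62.4, 65.3, 39.1 and 100% in cells labelled Hep3B, in the order control, NaB, Cur and Pip, and combination. Of 26 introns in all, 10 were annotated and 17 had GT and AG ends, and all 5 that were seen in 2 or more libraries were annotated. Depth on the minus strand over TALAM1, an RNA antisense to MALAT1 at chr11:65499312-65507432, was 0 in all 8 libraries.

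**Figure D4:**
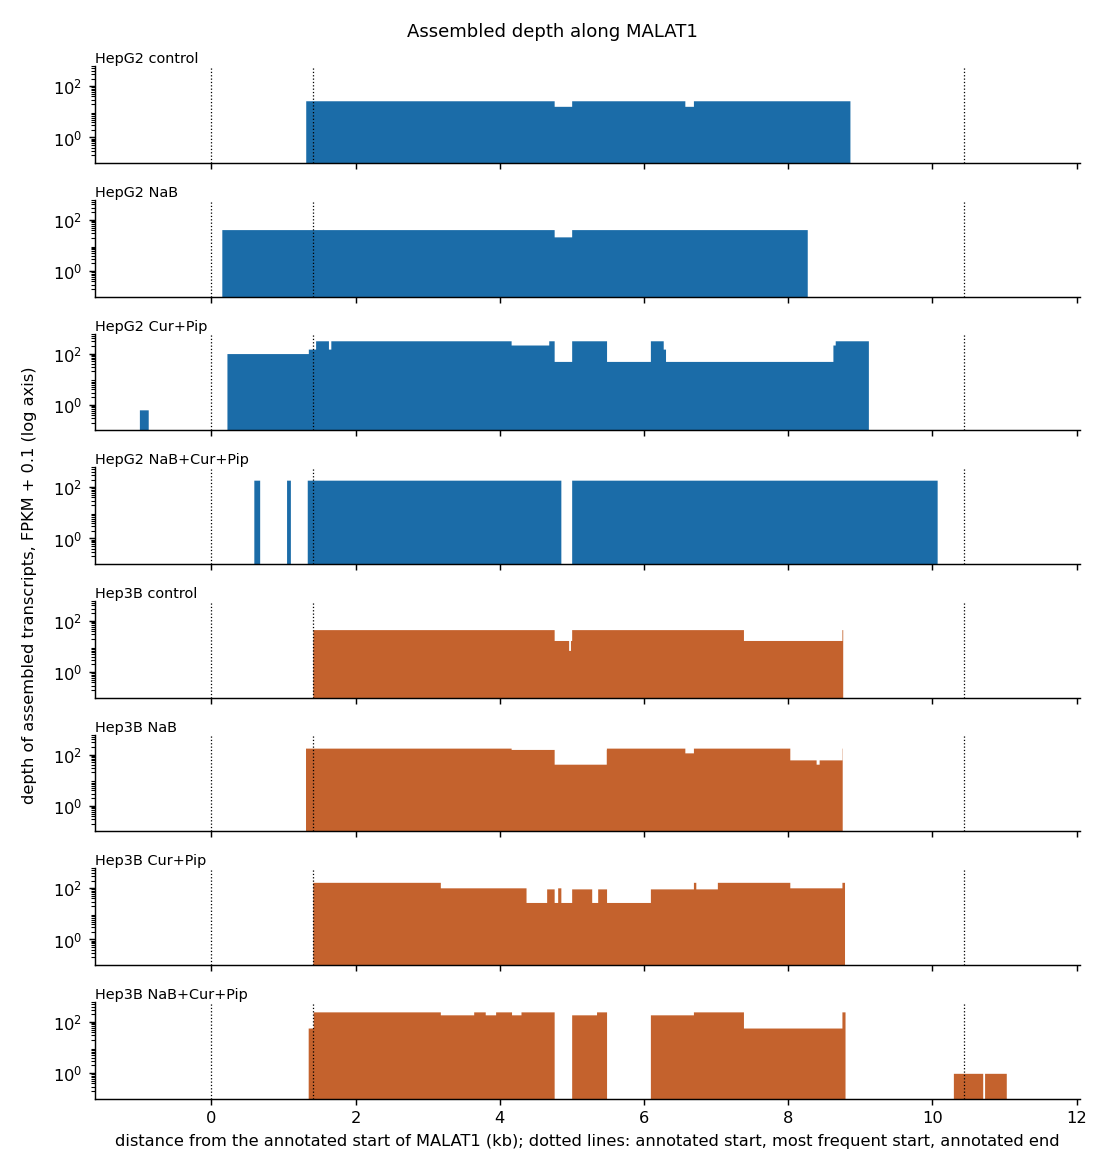
Depth of the assembled transcripts (FPKM + 0.1, log axes) along MALAT1, by distance in kb from its annotated start, in the 8 libraries; dotted lines mark the annotated start, the most frequent start and the annotated end. In the 4 libraries labelled Hep3B the assembled RNA begins within 100 bases of the most frequent start. In 7 of 8 libraries its last base lies past the tRNA-like small RNA. Part of the transcripts skip this small RNA in the libraries labelled Hep3B and in HepG2 with Cur and Pip.

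Between the genes little was assembled. On the plus strand the mean depth over these bases was 0.042, 0.0956, 0.244 and 0.318 FPKM in HepG2 and 0.109 to 0.143 FPKM in cells labelled Hep3B. The share of the bases covered was 2.73, 6.15, 28.8 and 23.7% in HepG2 and 2.77 to 8.49% in cells labelled Hep3B. Of all 8 libraries the HepG2 libraries with Cur and Pip were thus the highest here, as they were for NEAT1 and MALAT1 by gene-wide depth but not for NEAT1 by summed FPKM, at levels far below those of both genes. The part of this depth in the result was not tested.

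Of the 21 protein-coding genes within 250 kb, 18 were measured in each line. With NaB, Cur and Pip, and combination, 1, 2 and 2 of the 18 were higher past the threshold in HepG2, and 3, 2 and 2 lower. In cells labelled Hep3B 2, 0 and 1 were higher and 2, 1 and 1 lower. Over all genes 4.7 to 8.98% were higher and 3.95 to 11.5% lower. Such small counts are not read as a result about the neighbours. Among neighbours with transcripts in both the treated and the control library, 0 or 1 of 14 or 15 was higher past the threshold in each of the 6 comparisons, and 0 or 1 was lower. The share of all genes under this limit was not computed. FRMD8, the next coding gene before NEAT1, had 12.6, 12.1, 8.84 and 18.4 FPKM in HepG2 and 6.25 to 7.18 in cells labelled Hep3B. It did not come near the threshold. RNASEH2C, a subunit of RNase H2, was the higher neighbour among those with transcripts in both libraries. It had 9.57, 4.50, 70.0 and 3.31 FPKM in HepG2 (log2 fold changes -0.94, 2.75 and -1.29), so that it was higher with Cur and Pip alone and not with the combination. POLA2, a subunit of DNA polymerase alpha, was the lower neighbour among those with transcripts in both libraries. It had 13.0, 2.01, 3.54 and 2.48 FPKM in HepG2 (log2 fold changes -2.22, -1.63 and -2.01). POLA2 shares bases on the same strand with ENSG00000285816.

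Of 22 listed proteins of paraspeckles 21 were measured in HepG2. In this line 0 were higher past the threshold with any treatment, beside 4.7, 8.98 and 8.02% of all genes, a count too near the background to be read as a result about the list. The median log2 fold change was -0.30, -0.36 and -0.46 with NaB, Cur and Pip, and the combination (0 over all genes). In HepG2 1, 2 and 0 were lower past the threshold, beside 5.06, 10.2 and 11.5% of all genes. In cells labelled Hep3B 22 were measured, with medians of 0.02, -0.17 and -0.29 (-0.12, 0 and -0.05 over all genes). With each treatment 2 of these were higher past the threshold, beside 4.97, 6.44 and 6.79% of all genes, and 1 was lower, beside 7.01, 3.95 and 8.17%. Among the 20, 21 and 20 with transcripts in both libraries 1 was higher past the threshold with each treatment and 0, 1 and 0 were lower.

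Core members of the paraspeckle list differed among themselves. NONO, a partner of SFPQ in holding NEAT1 together, had 144, 65.3, 82.1 and 75.5 FPKM in HepG2 and 257, 138, 168 and 142 in cells labelled Hep3B. It was below its control in all 6 treated libraries, with log2 fold changes of -0.62 to -1.13, none past the threshold. HNRNPA1, an abundant splicing repressor, had 883, 597, 200 and 315 FPKM in HepG2 (-0.57, -2.14 and -1.48) and 924, 509, 293 and 446 in cells labelled Hep3B (-0.86, -1.65 and -1.05), past the threshold with Cur and Pip in both lines; its pseudogenes may share reads with it. CIRBP, a cold-inducible RNA-binding protein, had a log2 fold change of -3.47 with Cur and Pip in HepG2 (70.0 against 5.42 FPKM). AKAP8L, a nuclear scaffold protein, was at 1.52 with the combination in cells labelled Hep3B (24.7 against 72.5 FPKM). TARDBP, the RNA-binding protein TDP-43, was at 1.52, 1.56 and 1.47 there and at -0.48, -0.36 and 0.26 in HepG2.

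Of 22 proteins of nuclear speckles 21 were measured in each line, and the median log2 fold change was -0.05, 0.33 and 0.36 in HepG2 and 0.25, -0.07 and 0.19 in cells labelled Hep3B. In HepG2 1 member was lower past the threshold with each treatment, beside 5.06, 10.2 and 11.5% of all genes. In each case it had no transcript in the treated library. CLK1, a kinase that phosphorylates splicing factors, was the 1 member higher past the threshold in HepG2 with Cur and Pip and with the combination, beside 8.98 and 8.02% of all genes. It had 10.6, 14.1, 47.1 and 58.7 FPKM. In cells labelled Hep3B CLK1 had 10.1, 24.3, 18.8 and 29.4 FPKM (log2 fold changes 1.19, 0.83 and 1.45). There 0 members passed the threshold, beside 4.97, 6.44 and 6.79% of all genes higher and 7.01, 3.95 and 8.17% lower. These counts are too near the background to be read as a result about the list. SRSF7 and SRSF5, SR proteins of splicing, had combination values of 1.04 and -0.60 in HepG2 and of 0.57 and -0.54 in cells labelled Hep3B. DYRK1A, another kinase of splicing factors, was at 0.96 and 0.44, and PPIG, a cyclophilin of speckles, at 0.42 and -0.98.

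The enzymes that cut and bind the 3′ elements were listed as RNase P subunits, the RNase Z gene ELAC2 and METTL16, which binds the MALAT1 triple helix. Of these 12 genes 11 were measured in HepG2 and 12 in cells labelled Hep3B. In any comparison 0 were higher past the threshold, beside 4.7 to 8.98% of all genes. RPP21 was lower past it with Cur and Pip in cells labelled Hep3B, where it had no transcript, beside 3.95% of all genes. These counts are too near the background to be read as a result about the list. The median log2 fold change was -0.00, -0.32 and -0.01 in HepG2 and 0.40, 0.17 and 0.68 in cells labelled Hep3B. With the combination the RNase P subunits POP5, RPP14, POP4, RPP40 and RPP30 had values of -0.98, 1.04, -1.10, -0.19 and -0.00 in HepG2, and of -1.27, 0.73, 0.20, 1.03 and 1.15 in cells labelled Hep3B.

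Of 10 transcription factors known to act on NEAT1, 10 were measured in each line. RUNX1 passed the threshold with the combination in cells labelled Hep3B (1.65, 2.55 against 10.2 FPKM), and no other value of the list did in the 6 comparisons. Over all genes 4.7 to 8.98% were higher and 3.95 to 11.5% lower past it. The counts of the list are too near this background to be read as a result about it. The median log2 fold change in HepG2 was -0.03, -0.71 and -0.81, and in cells labelled Hep3B -0.17, 0.09 and -0.40. E2F1, HIF1A, HSF1 and NFE2L2 (factors of the cell cycle, hypoxia, heat shock and oxidative stress) had combination values of -1.48, -1.34, -1.03 and -1.17 in HepG2, where NEAT1 was at 2.12. Those of the line labelled Hep3B were -1.10, -1.16, -0.63 and -0.40. RUNX1 went the other way in HepG2, at 0.64 with the combination. The list holds levels of the factors' RNA only.

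Of 14 other long noncoding RNAs 11 were measured in HepG2 and 10 in cells labelled Hep3B. In HepG2 3 were higher past the threshold with Cur and Pip and 3 with the combination, beside 8.98 and 8.02% of all genes, and the medians were 0.24, 0.71 and 0.56. LINC-PINT, a p53-regulated RNA, had 3.65, 4.73, 34.7 and 21.2 FPKM in HepG2 (log2 fold changes 0.30, 2.94 and 2.25) and 8.13, 5.53, 23.2 and 16.3 in cells labelled Hep3B (-0.48, 1.41 and 0.92). CYTOR, a cytoplasmic RNA, had 67.7, 124, 203 and 317 FPKM in HepG2 and 67.2, 67.1, 103 and 141 in cells labelled Hep3B, so that the same conditions were highest in both lines.

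GAS5, which hosts small nucleolar RNAs, had 65.9, 102, 108 and 223 FPKM in HepG2 and 284, 132, 108 and 122 in cells labelled Hep3B. Every treated library was above the control in HepG2 and below it in cells labelled Hep3B. OIP5-AS1 had 15.5, 6.05, 21.8 and 5.48 FPKM in HepG2 and 82.9, 4.68, 17.1 and 6.25 in cells labelled Hep3B, where it was lower past the threshold with each treatment. PVT1, next to MYC, had log2 fold changes of 0.24, 1.30 and 0.90 in HepG2 and of 0.93, 0.90 and 1.32 in cells labelled Hep3B. In the latter line the medians of the list were -0.24, 0.26 and -0.17. There 0 of its members were higher past the threshold, beside 4.97, 6.44 and 6.79% of all genes. Lower past it were 1, 1 and 2, beside 7.01, 3.95 and 8.17%. With the combination 1 of the 2 lower members had no transcript in the treated library. In this line the counts are too near the background to be read as a result about the list.

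**Figure D5:**
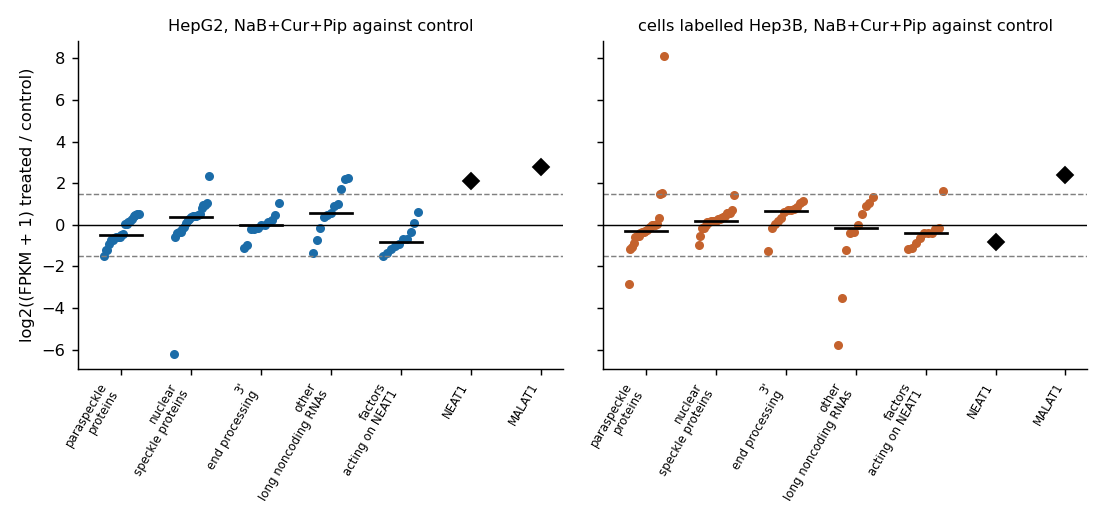
Log2 fold change (FPKM + 1) with NaB, Cur and Pip against the control for each measured member of the 5 lists (dots, with black bars for list medians) and for NEAT1 and MALAT1 (black diamonds), HepG2 on the left and cells labelled Hep3B on the right; dashed lines mark 1.5 in either direction. NEAT1 stands at 2.12 in HepG2, where the paraspeckle proteins have a median of -0.46, and at -0.84 in cells labelled Hep3B, where they have a median of -0.29; MALAT1 stands at 2.76 and 2.41.

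The genes whose 6 fold changes were nearest to those of each member were sought among 4935 genes whose FPKM reached 5 in every library, by the root mean square difference on the log2 scale. The fold changes of a line share its control. For NEAT1 these were NBPF1 (0.362), RHOC (0.481), a small GTPase, and FBXO30 (0.483), an F-box protein, with a median of 1.49 over all genes compared. NBPF1, a member of a family of near-identical copies that may share reads, had 11.8, 14.2, 54.7 and 37.9 FPKM in HepG2 and 15.3, 8.20, 17.8 and 11.4 in cells labelled Hep3B. For MALAT1 they were KLHL21 (0.662), an adaptor of a ubiquitin ligase, CNIH4 (0.671) and SERTAD1 (0.746), with a median of 2.46. KLHL21 had 15.4, 23.3, 110 and 45.2 FPKM in HepG2 and 8.11, 21.8, 25.9 and 47.4 in cells labelled Hep3B.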

How the data were processed

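Libraries were made from RNA with a directional kit, and the sources used here do not say whether poly(A) RNA was selected. Reads were aligned by the authors to GRCh38 with STAR, and transcripts were assembled library by library with Cufflinks. The deposited files hold other values than counts: for each transcript an FPKM with its 95% bounds and a coverage, without gene names. The notes of the submitters also name FastQC and Cuffdiff; no versions are given. Merged tables and Cuffdiff p-values were not used here. The methods describe RNA isolated in triplicate, and 1 library per condition was analysed.

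A transcript went to the gene of GENCODE release 44 on its strand (bedtools 2.31.1) in which 50% or more of its exonic bases lie; 70.4 to 88.1% of transcripts were assigned. Of the assembled introns 94.9 to 96.5% were annotated, so the builds match. FPKM were summed per gene. Gene-wide depth is FPKM weighted by the bases covered, over the merged annotated exons. Intervals of a gene or fold change were built from those of its transcripts. Fold changes used a pseudocount of 1 and genes that reached an FPKM of 1 in any library of the line. Log2(FPKM + 1) values were fitted across all genes with limma (3.58.1, under R 4.3.3) with Benjamini-Hochberg adjustment; other steps used Python 3.11.15, numpy 2.4.6, pandas 2.3.3 and matplotlib 3.10.9. Scripts were tested on simulated data.

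Named were both members in full, and from each list the 5 genes with the largest mean absolute combination change among those reaching an FPKM of 1 in all libraries; RPP21, FRMD8, RNASEH2C and POLA2 were added after their values were seen. The lists were paraspeckle and nuclear speckle proteins, 3′ end enzymes, other long noncoding RNAs, factors acting on NEAT1, and cell type markers. The members and lists were chosen with earlier results of these data known. Sequences came from GRCh38 and RefSeq. Some genes are not reported here.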

Additional observations from a re-analysis of the deposited data

Results flagged for a closer look

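The summed level of NEAT1 went in opposite directions in the lines after the combination. The log2 fold change against the control was 2.12 in HepG2 (9.71 against 45.6 FPKM) and -0.844 in cells labelled Hep3B (215 against 119 FPKM), and both Cufflinks intervals exclude 0. This difference between the lines was not tested, since each condition has 1 library and the NaB doses differ. By gene-wide depth the value in cells labelled Hep3B was 0.01 and that in HepG2 2.05.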

How the results depend on the processing

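Directions of MALAT1 within each line held under every alternative tried, and the cause of each shift below was not tested beyond what its construction shows. Directions of NEAT1 held within the lines except by gene-wide depth after the combination in cells labelled Hep3B. By gene-wide depth the log2 fold changes of MALAT1 in HepG2 were 0.711 (NaB), 2.97 (Cur and Pip) and 2.98 (combination), and in cells labelled Hep3B 1.52 (Cur and Pip) and 2.08 (combination); those of NEAT1 were 2.18 in HepG2 with Cur and Pip, and -0.133 (NaB) and 0.00953 (combination) in cells labelled Hep3B. With the largest transcript alone MALAT1 was at 0.387, 3.27 and 3.45 in HepG2 and at 1.38 (Cur and Pip) and 2.69 (combination) in cells labelled Hep3B, where NEAT1 was at -0.644 after the combination. A pseudocount of 0.1 gave NEAT1 2.40 and 2.22 in HepG2 with Cur and Pip and with the combination, and one of 5 gave 1.94 and 1.78; with 5, MALAT1 was at 3.33 and 2.60 there and at 1.86, 1.79 and 2.31 in cells labelled Hep3B. Median-of-ratios scaling gave -0.888 for NEAT1 and 2.12 for MALAT1 with NaB in cells labelled Hep3B.

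Genes past the fold threshold numbered 2082 with a pseudocount of 0.1 and 596 with one of 5 in HepG2 with NaB (1310 as reported), 3867 and 1121 with Cur and Pip (2575), and, with 5, 1194 with the combination (2624). In cells labelled Hep3B they numbered 2637 and 697 with NaB (1600), 2138 and 661 with Cur and Pip (1387), and 3088 and 946 with the combination (1996). For NaB, Cur and Pip, and the combination limma called 18, 29 and 59 genes with a pseudocount of 0.1 and 1, 2 and 18 by gene-wide depth. It called 2 and 4 for the last 2 with a pseudocount of 5, 2 with a trended prior for Cur and Pip, and 20 with median-of-ratios scaling for the combination.

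Leaving out each library in turn, limma called 0 genes for each treatment. The change of MALAT1 ranged from 0.281 to 2.27 (NaB), 1.71 to 3.66 (Cur and Pip) and 2.46 to 2.71 (combination). That of NEAT1 ranged from -1.65 to 0.415, 0.104 to 2.16 and -0.393 to 1.67; it was turned without the control labelled Hep3B (0.415, NaB) and, for the combination, without the HepG2 control (-0.393) or combination (-0.307). The log2 ratio of NEAT1 depth between its shared and long parts in cells labelled Hep3B, 9.50, 2.55, 7.81 and 2.69 in control, NaB, Cur and Pip, and combination, was 5.46, 2.38, 5.27 and 2.50 with the boundary 500 bases nearer to the start; with it 500 bases nearer to the end it was 2.76, 7.59 and 2.91 in the 3 treated libraries. No paired analysis was possible beyond the line term of the limma fit because each condition has 1 library in each line. FPKM without counts and 1 library per condition limit all values to a description.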
